A study of Mus musculus with 2 samples.

Results

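Accessibility at 10 genes of the Notch pathway was followed in the back skin of mouse embryos: the receptor genes Notch1, Notch2 and Notch3, the ligand genes Jag1, Jag2 and Dll1, the nuclear cofactor genes Rbpj and Maml1, and the target genes Hes1 and Hey1. They were chosen by name, and their regions were the peaks within 500 bp of a start of a protein-coding transcript, in the gene body or within 20 kb of the gene. This gave 10 genes of the 15877 with a promoter region, and 164 of 214119 shared regions, which are the merged regions that hold a peak of each library. Single-cell ATAC-seq, in which a transposase cuts open chromatin, had been run on 1 Control library and 1 MOF cKO library at E16.5. The cKO carried both floxed alleles of MOF (Kat8), an acetyltransferase of histone H4 lysine 16, and Cre under the Krt14 promoter, which acts in surface epithelium. The study describes its controls as wildtype or heterozygous littermates, without saying which the Control library was. Cells of both carried a Krt14-driven H2BGFP reporter, and by the labels sorted GFP-positive and GFP-negative cells were mixed 5 to 1, while the study's text gives other ratios. Either way class sizes describe the mixture and not the skin.

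In Notch signaling, a ligand on a cell binds a receptor on its neighbor, the receptor is cut, and its intracellular part enters the nucleus. There it joins the DNA-binding protein RBPJ and a Mastermind coactivator and turns on genes such as Hes1 and Hey1, which encode repressors. In the epidermis the pathway is known for driving basal cells into the suprabasal layers.

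With 1 library per genotype no difference was tested, and each interval below is a 95% interval that covers counting error only. Cells were grouped by accessibility and named from marker promoters. This gave 1697 Control and 2657 MOF cKO epithelial-like cells, 664 and 1261 fibroblast-like cells, 46 and 265 immune-like cells, 14 and 67 mural-like cells, 23 and 19 muscle-like cells and 8 and 24 endothelial-like cells. Epithelial-like cells had medians of 65767 and 84526 sites per cell, and fibroblast-like cells 63762.5 and 52325. The genotypes lay almost wholly in different epithelial-like clusters, Control in clusters 2, 7, 10, 12, 14 and 17 and MOF cKO in clusters 0, 1, 3 and 9. Cluster 17, with 62 Control cells, was suprabasal-like (Krt1, Krtdap, Sbsn, Dsg1a and Dsc1), and no other cluster had enough markers to be given a layer. Differences between genotypes therefore cannot be told apart from differences in the mix of epithelial states. The summed level of 13 epithelial marker promoters in epithelial-like cells was 400.0 CPM for Control and 363.4 CPM for MOF cKO, and that of 10 fibroblast markers in the same cells 113.5 and 87.83 CPM. That of 9 immune markers was 19.52 and 32.01 CPM. The part of these levels in the results was not tested. In sums over a class, fewer open cells and less opening per cell cannot be told apart. The Kat8 promoter was at 48.7 and 36.7 CPM in epithelial-like cells, a log2 change of −0.41, and does not report on the deleted exons. The libraries had 21 cell barcodes in common.

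Levels are in CPM, the cut sites of a region divided by the sites in all shared regions of the class and multiplied by 1e6. A change is the log2 ratio of MOF cKO to Control. Over all promoters of epithelial-like cells the median change was −0.41, with quartiles of −0.54 and −0.22. Its size depends on the total used for scaling (−0.56 to −0.24 under the other totals), so the changes of the Notch genes are read against that median. Their own median was −0.43, and 8 of 10 were lower in MOF cKO, where 85.8% of all promoters were. None passed a 2-fold change, compared with 2.46% of all promoters 2-fold lower and 2.24% 2-fold higher. The interval lay wholly below the promoter median for 4 genes (29.6% of all promoters) and wholly above it for 4 (31.6%). Per base of the peaks called in each library, 9 of 10 were lower (background 86.4%). Intervals lay below the median of −0.42 for 3 genes (30.2%) and above it for 3 (31.5%). Notch1, Maml1 and Jag1 were no longer outside it and Dll1 was below it. For Notch1 this rests on peak length at its outermost start, which held few of its sites. As a group the 10 genes thus stood close to the median of all promoters, with some on each side.

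**Figure D1:**
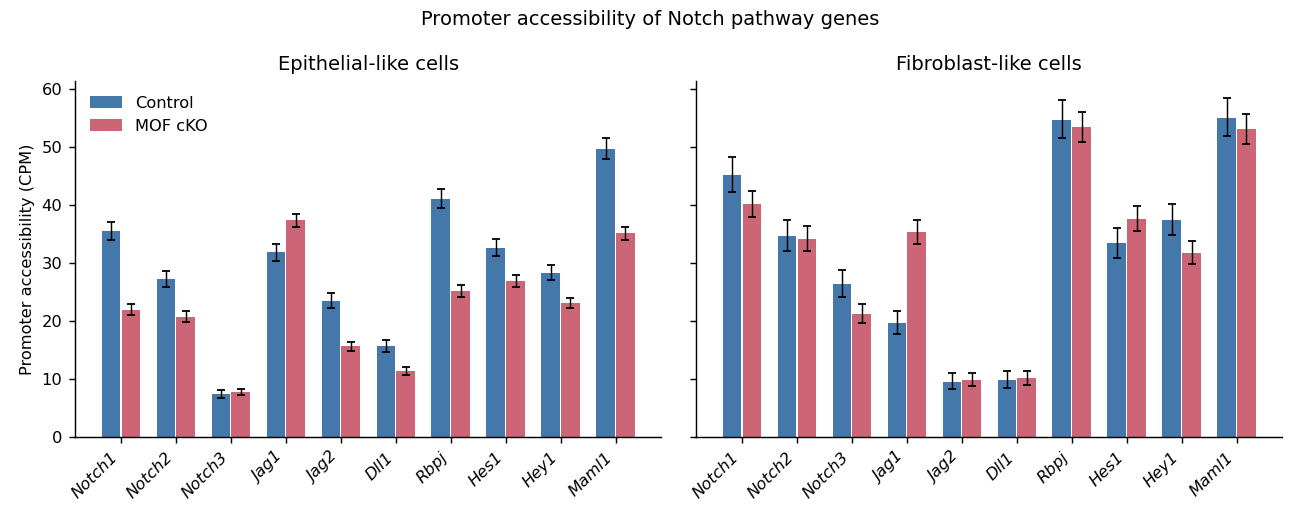
Promoter accessibility (CPM, linear axis from 0) of the 10 genes in epithelial-like (left) and fibroblast-like (right) cells, with 1 bar per library and exact 95% Poisson intervals for counting error. Rbpj, Notch1 and Maml1 show wide gaps between the epithelial bars, and the Jag1 bar is higher in MOF cKO in both classes, which in epithelial-like cells turns to a change of −0.37 per base of own peaks.

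Of the receptor genes, Notch1, a receptor known to act in epidermal differentiation, had 4179 promoter sites in Control and 4567 in the MOF cKO epithelial-like class. This gave levels of 35.5 CPM (34.0–37.1) and 21.96 CPM (21.1–22.9), a change of −0.69 (−0.78 to −0.61) at percentile 9.46 of all promoters, and of −0.51 per base of the peaks called in each library. Nearly all of it came from the region at its inner start, chr2:26503403-26504312, at 33.9 and 20.7 CPM. The region at its outermost start, chr2:26516089-26517328, held 1.598 and 1.294 CPM. Notch2 went from 27.3 CPM (25.9–28.6) to 20.7 CPM (19.9–21.6), a change of −0.39 at the middle of all promoters (percentile 54.1). Notch3, known for its role in mural cells, was low in epithelial-like cells, at 7.33 CPM (6.65–8.05) and 7.74 CPM (7.22–8.30). Its change of 0.08 (−0.09 to 0.25) held 0 within the interval and turned to −0.066 with all sites in a library's own peaks as the total, but lay at percentile 88.1 of all promoters. By sites the receptors thus differed, with Notch1 below, Notch2 at and Notch3 above the promoter median. Per base the interval of the summed Notch1 regions held the median. The length difference lay mainly at the outermost start, with peaks of 1073 bp in Control and 837 bp in MOF cKO. At the inner start the peaks were 908 and 902 bp, so length hardly entered the change there, −0.71 by sites.

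Among the ligand genes, Jag2 went from 23.5 CPM (22.3–24.8) to 15.6 CPM (14.9–16.4), a change of −0.59 (−0.69 to −0.49), which was −0.91 with cells thinned to 5000 sites. Dll1, whose protein is a Delta-type ligand, went from 15.7 CPM (14.7–16.7) to 11.3 CPM (10.7–11.97), a change of −0.47 (−0.60 to −0.34). Jag1 was the exception. Its promoter region, chr2:137116674-137117635, held 3747 sites in Control and 7762 in MOF cKO, or 31.8 CPM (30.4–33.3) and 37.3 CPM (36.2–38.5), a change of 0.23 (0.15 to 0.31) at percentile 91.4. However, the peak called there was 634 bp long in Control and 962 bp in MOF cKO, and sites were counted only inside a library's own peaks. Per base of its own peaks, Jag1 changed by −0.37 (−0.45 to −0.29), close to the promoter median, so the direction of the Jag1 change rests on the length of the called peak. A length ratio as far from 1 as that of Jag1 occurred at 0.624% of all promoters and at none of the other 9 genes.

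Of the nuclear cofactors, Rbpj had the lowest change by sites of the 10 genes, with an interval that overlapped that of Notch1. It had 4835 sites in Control and 5226 in MOF cKO, or 41.1 CPM (39.5–42.8) and 25.1 CPM (24.2–26.1), a change of −0.71 (−0.79 to −0.63) at percentile 8.79. Per base of its own peaks, which were 941 and 855 bp long, the change was −0.57, above those of Jag2 (−0.63) and Dll1 (−0.58). With a promoter window of 1000 bp, which takes in more regions, the Rbpj change was −0.43. That was close to the median of −0.40 over all promoters with this window. The Rbpj promoter region, chr5:53590128-53591068, holds 4 of the 6 annotated protein-coding starts. Maml1, a Mastermind coactivator, went from 49.7 CPM (47.9–51.5) to 35.1 CPM (34.0–36.3), a change of −0.50 at percentile 31.9. The target genes lay above the promoter median. Hes1 went from 32.6 CPM (31.2–34.1) to 26.9 CPM (25.9–27.9), a change of −0.28 (−0.36 to −0.19) at percentile 70.3, and Hey1 from 28.3 CPM (27.0–29.7) to 23.1 CPM (22.2–24.0), a change of −0.30 (−0.39 to −0.20) at percentile 68.4.

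**Figure D2:**
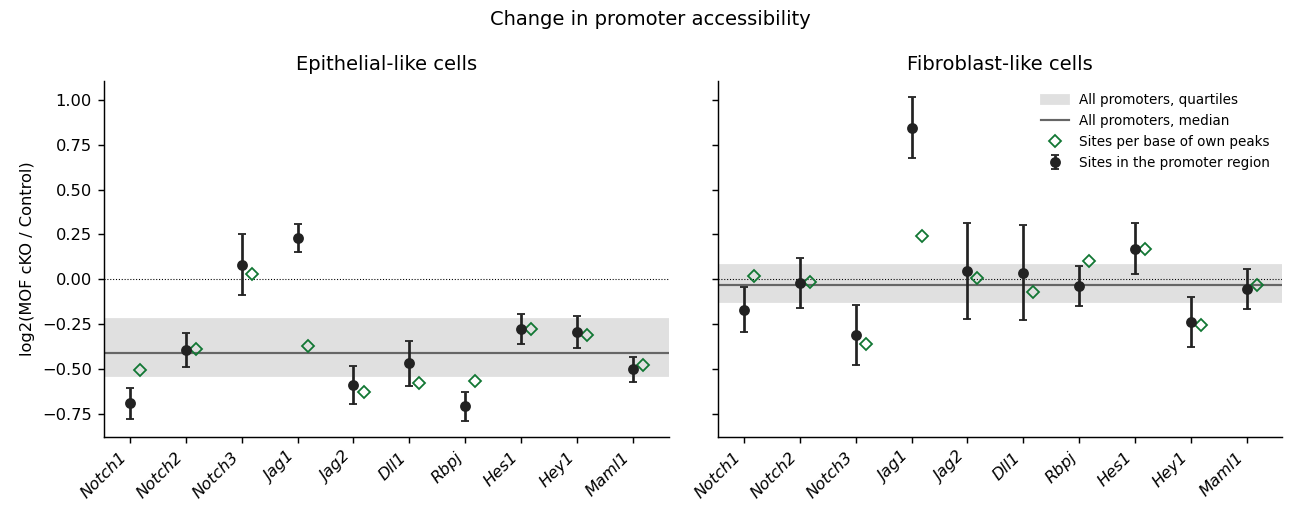
Change in promoter accessibility, log2(MOF cKO / Control), in epithelial-like (left) and fibroblast-like (right) cells. Filled points are changes of site counts with 95% counting intervals, open diamonds are changes per base of each library's own peaks, and the line and band are the median and quartiles of all promoters. Jag1 lies at 0.23 and 0.84 by sites but at −0.37 and 0.24 per base.

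The Rbpj promoter is shown because it had the lowest change by sites and because the motif of its own product, the core TGGGAA, lies in it. The sequence is from RefSeq on GRCm38.p6, chr5:53590096-53590213 on the plus strand, upstream of the annotated 5′ UTR, and capitals mark the core.
Rbpj promoter: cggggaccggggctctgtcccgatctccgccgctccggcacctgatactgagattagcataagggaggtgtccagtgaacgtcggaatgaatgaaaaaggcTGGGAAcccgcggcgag
RefSeq promoters could be matched for 8 of the 10 genes (10 entries). In the 250 bases before the start, TGGGAA or its complement TTCCCA lay in 21.6% of all promoters and, of the 8 genes, in those of Rbpj alone. The longer GTGGGAA or TTCCCAC lay in 5.42% of all promoters and the AP-1 words TGACTCA or TGAGTCA in 4.46%, and in none of the 8 genes. These are matches of letters, not bound sites. The 11 promoter regions of the 10 genes were rich in G and C, with a median of 65.3% against 58.2% over all promoter regions. Hes1 was the lowest at 45.5% and Hey1 the highest at 75.7%.

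Fibroblast-like cells, a class in which the Krt14 promoter is not known to act, were compared in the same way. Here too the genotypes were spread unevenly over clusters, with 290 Control and 52 MOF cKO cells in cluster 8, 5 and 436 in cluster 6, 54 and 414 in cluster 4, and 219 and 232 in the evenly shared cluster 5. The median over all promoters was −0.03, the median of the 10 genes was −0.03, and 6 of 10 were lower in MOF cKO (58.1% of all promoters). None passed 2-fold, against 0.839% of all promoters lower and 1.89% higher. The interval lay wholly below the promoter median for 3 genes, Hey1, Notch1 and Notch3 (13.1% of all promoters). It lay wholly above it for 2, Hes1 and Jag1 (13.1%). Per base of own peaks 2 lay below (14.8%) and 3 above (13.1%). Rbpj was at 54.7 CPM (51.5–58.1) in Control and 53.4 CPM (50.8–56.0) in MOF cKO, a change of −0.04 (−0.15 to 0.08). Notch1 was at 45.1 and 40.1 CPM, a change of −0.17 (−0.30 to −0.04), which became 0.02 per base of own peaks. That turn rests on peak length at the outermost start (9.79 and 7.91 CPM, peaks of 1073 and 837 bp). At the inner start the level was 35.3 and 32.2 CPM, a change of −0.13, with peaks of 908 and 902 bp. Jag1 was at 19.7 CPM (17.8–21.7) and 35.3 CPM (33.3–37.5), a change of 0.84 (0.68 to 1.02) at percentile 97.4, and of 0.24 (0.07 to 0.41) per base. By sites Jag1 was higher in MOF cKO in clusters 4 (18.6 and 38.1 CPM), 5 (15.8 and 40.5 CPM) and 8 (22.1 and 28.5 CPM). In cluster 13 it was lower (25.5 and 21.55 CPM), and the intervals of the genotypes overlapped in clusters 8 and 13. Notch3 was at 26.4 and 21.3 CPM, a change of −0.31 (−0.48 to −0.14), and Hey1 at 37.5 and 31.7 CPM, a change of −0.24 (−0.38 to −0.10). Within cluster 5 Notch3 was at 21.6 and 22.4 CPM, and it was lower in MOF cKO in clusters 4 (25.1 and 18.9 CPM), 8 (30.1 and 22.7 CPM) and 13 (29.5 and 14.5 CPM). Hey1 was lower in each of these 4 clusters, from 30.6 and 27.8 CPM in cluster 5 to 46.98 and 24.5 CPM in cluster 13. The intervals of the genotypes overlapped in each cluster for both genes. Hes1 went the other way, from 33.4 CPM (30.9–36.1) to 37.6 CPM (35.5–39.8), a change of 0.17 (0.03 to 0.31), but as sites per cell it was −0.10. Within clusters Hes1 was higher in MOF cKO in cluster 8 (28.9 and 36.6 CPM) and cluster 5 (36.6 and 38.95 CPM) and lower in cluster 4 (44.8 and 37.6 CPM) and cluster 13 (45.6 and 36.5 CPM), with overlapping intervals in each. The part of the cluster mix in these changes was not tested. Notch2, Jag2, Dll1 and Maml1 had intervals that held 0. Thus the 3 lowest epithelial changes by sites, at Rbpj, Notch1 and Jag2, stood beside fibroblast changes of −0.04, −0.17 and 0.05. The promoter medians of the classes were −0.41 and −0.03, and the genes were picked for their epithelial values. By sites Notch1 was low in both classes, at percentiles 9.46 and 18.1, and its fibroblast interval lay below the median of that class.

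The genes also differed in level between cell classes. To compare genes, CPM was divided by the length of the promoter region. In Control epithelial-like cells Maml1 was highest at 56.5 CPM per kb, followed by Rbpj at 43.7, Hes1 at 38.6, Hey1 at 34.9, Jag1 at 33.1, Notch2 at 32.7, Jag2 at 22.9, Notch1 at 16.52, Dll1 at 16.47 and Notch3 at 5.08. The median of all promoters was 20.7 CPM per kb. The counting intervals of Hey1, Jag1 and Notch2 overlapped, as did those of Notch1 and Dll1. The Jag1 value holds only sites inside the short Control peak, of 634 bp, but is divided by the region of 962 bp. Control sites in the rest of that region were not counted. That of Notch1 is held down by the region at its outermost start, with 1.598 CPM in 1240 bp against 33.9 CPM in 910 bp at the inner start. The ranks of both genes thus depend on the length used. In Control fibroblast-like cells Maml1 (62.6) and Rbpj (58.2) were again highest and Jag2 (9.27) was lowest.

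**Figure D3:**
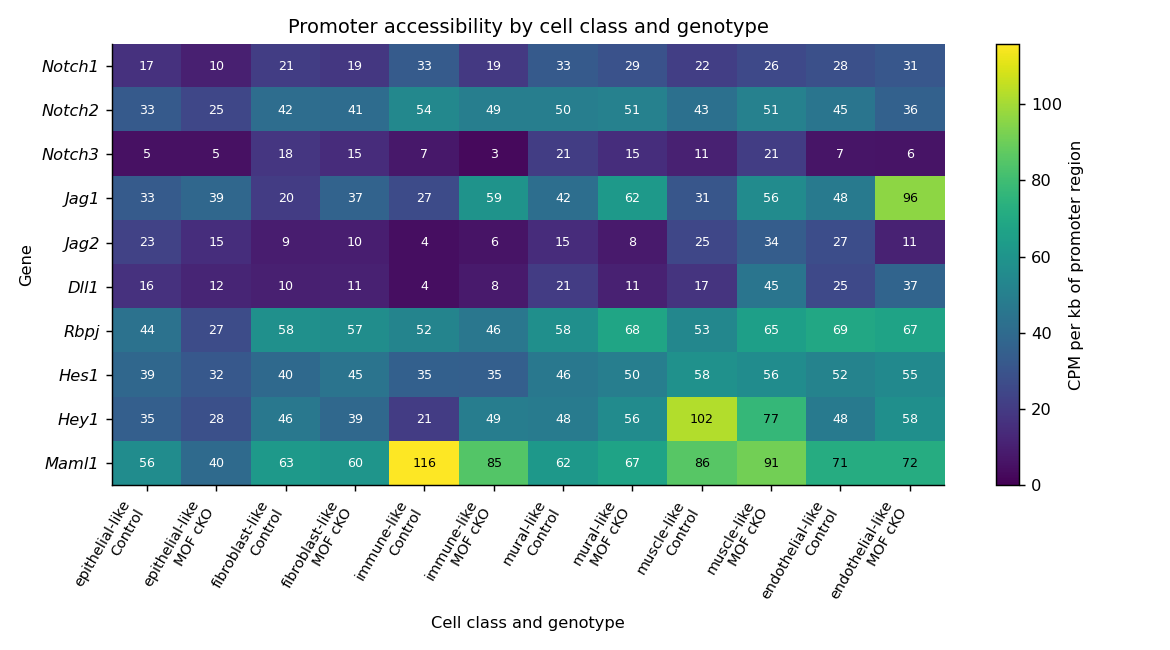
Promoter accessibility of each gene (rows) in CPM per kb of promoter region, by cell class and genotype (columns, 1 library each). Jag2 is low in immune-like cells, Notch3 is low in epithelial-like, immune-like and endothelial-like cells, and Hey1 is high in muscle-like cells.

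Jag2 was at 22.9 CPM per kb in Control epithelial-like cells and at 4.08 in immune-like cells, with 8 sites there. Notch3 was at 18.3 in fibroblast-like and 21.2 in mural-like Control cells, against 5.08 in epithelial-like cells. The medians of all promoters in these Control classes were 23.7, 31.9 and 20.7 CPM per kb. Within its class Notch3 thus lay at percentiles 40.2, 32.3 and 16.7 of all promoters. The mural-like value rests on 28 sites in 14 cells. Hey1 was highest in muscle-like cells, at 102.5 CPM per kb in Control and 77.3 in MOF cKO, with 86 and 50 sites in 23 and 19 cells. The median of all promoters was also higher there, at 39.8 CPM per kb in Control. Hey1 lay at percentile 95.8 of that class, against 73.7 in Control epithelial-like cells. Dll1, a ligand gene known to act in muscle development, had 17 Control and 34 MOF cKO sites in muscle-like cells, or 16.4 CPM (7.31–31.8) and 42.6 CPM (24.8–68.2). By sites Jag1 was higher in MOF cKO in all 6 classes, from 0.23 in epithelial-like to 1.16 (0.56 to 1.82) in immune-like cells. Per base of own peaks these changes ran from −0.37 to 0.56, and of the intervals only those of epithelial-like (below 0) and fibroblast-like cells (above 0) left out 0. In immune-like cells Hey1 was at 16.7 CPM in Control and 40.0 CPM in MOF cKO, a change of 1.26 (0.52 to 2.09), but the Control class had 46 cells from cluster 11, with Tyrobp and Spi1 among its top genes, and cluster 18, with Cst7 and Cd3d among its top genes, in near equal numbers (24 and 22), and MOF cKO had 230 and 35. In the same class Notch1 changed by −0.80 (−1.20 to −0.38), Notch3 by −1.38 (−2.56 to −0.10, from 20 and 37 sites) and Maml1 by −0.45 (−0.78 to −0.11). These genes are named because their intervals left out 0. No median change over all promoters was taken for immune-like cells, so the values are not read against one. The part of the mix of clusters 11 and 18 in these changes was not tested.

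Within epithelial-like cells the clusters were compared as a description, since clusters of a library are not replicates. Of the 10 genes, 3 were higher in each of 6 Control clusters than in any of the 4 MOF cKO clusters, where 31.5% of all promoters were. Rbpj was at 37.3 to 48.7 CPM in the Control clusters and at 22.9 to 35.8 CPM in the MOF cKO clusters. Notch1 was at 33.5 to 43.1 and at 19.1 to 29.4 CPM, and Maml1 at 47.7 to 67.1 and at 29.9 to 44.7 CPM. The highest MOF cKO value of each was in cluster 9, of 334 cells. Jag2 varied most between clusters of a genotype, from 30.3 CPM in cluster 7 to 8.11 CPM in the suprabasal-like cluster 17 in Control, and from 9.43 to 21.4 CPM in MOF cKO. Dll1 was also lower in cluster 17 (11.1 CPM, 6.97–16.7) than in the large cluster 2 (17.3 CPM, 15.6–19.0), with overlapping intervals. It was lowest in the shallow cluster 10 (7.76 CPM, 2.69–17.5, from 11 sites). Hes1 in cluster 17 was the highest of the Control clusters, at 43.3 CPM (34.7–53.3) against 29.3 to 36.1 CPM in the others. Its interval there overlapped those of clusters 7, 10, 12 and 14.

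Across the 22 pairs of cluster and library with at least 50 cells, the promoters of Rbpj and Notch1 varied most alike (Pearson r = 0.90 of log2(CPM + 1)), followed by Notch2 with Maml1 (0.82). Jag2 and Dll1 had r = 0.50 with each other and negative r with each receptor. These points share libraries and depth, so r is a description. The genes with the pattern most like each were Pa2g4 for Notch1 (r = 0.95), Slc39a7 for Notch2 (0.94), Col6a2, a collagen gene, for Notch3 (0.96), Plpp2 for Jag1 (0.85), Mas1 for Jag2 (0.91), Bex2 for Dll1 (0.81), Pogz for Rbpj (0.94), Osbpl1a for Hes1 (0.86), Ddx55 for Hey1 (0.88) and Hspa8 for Maml1 (0.95).

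Outside their promoters the 10 genes had 153 shared regions, 83 in gene bodies and 70 in the flanks. Of these, 26 were 2-fold or more higher in MOF cKO epithelial-like cells (17.0%, against 15.7% of all 142328 regions linked to a protein-coding gene in this way), and 18 were 2-fold or more lower (11.8%, against 12.2%). In all 95 of the 153 were lower (background 58.3%), and the median was −0.33, against −0.17 over all linked regions. In fibroblast-like cells, of 151 regions with enough sites, 17 were higher (11.3%, background 10.1%) and 11 lower (7.28%, background 7.2%), and 73 were below 0 (background 49.5%). Of the 26 regions that were higher in epithelial-like cells, 9 were also 2-fold higher in fibroblast-like cells (34.6%, against 25.5% of all linked regions that were higher). Of the 18 lower regions 2 were also 2-fold lower (11.1%, against 14.4%). The counts in epithelial-like cells follow the total used for scaling. With all own peaks as the total 19 were higher (12.4%, background 13.7%) and 28 lower (18.3%, background 16.1%), and as sites per cell 30 were higher (19.6%, background 18.4%) and 8 lower (5.23%, background 8.51%). In fibroblast-like cells the balance turned as sites per cell, with 7 higher (4.64%, background 6.18%) and 21 lower (13.9%, background 12.8%). Changes past 2-fold were thus far more frequent at these regions than at the promoters, as they were for other genes. The regions needed only 20 sites and mostly held fewer than the promoters, so counting error weighs more on them. The Notch2 region at −6.9 kb, for instance, counts as higher in fibroblast-like cells with 2 Control and 24 MOF cKO sites. The part of counting error in this contrast was not tested.

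**Figure D4:**
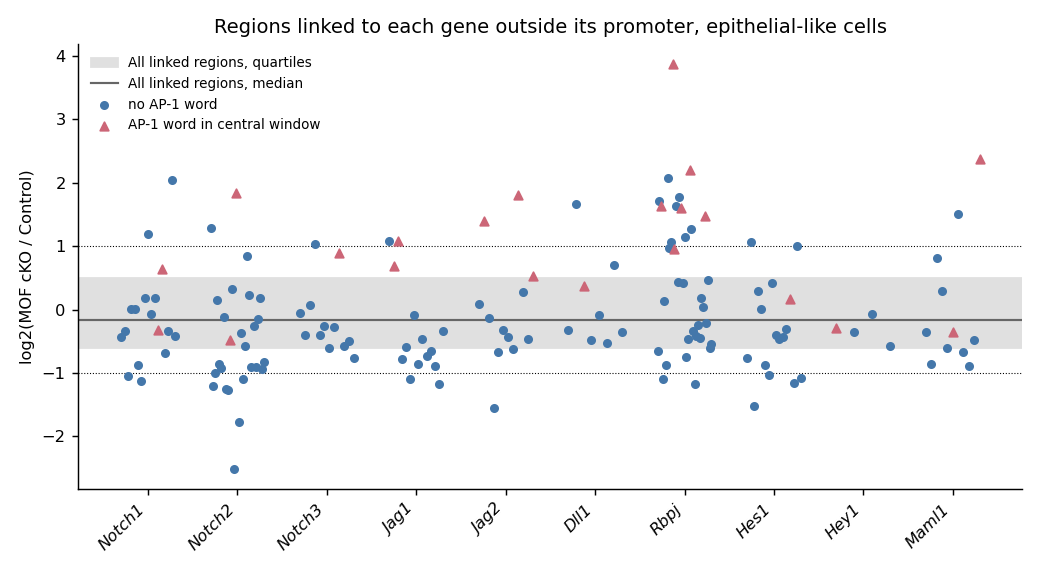
Change in epithelial-like cells, log2(MOF cKO / Control), of each region linked to the 10 genes outside their own promoters, in order of position within a gene. Triangles hold an AP-1 word in the central 300 bp, dotted lines mark 2-fold, and the band and line are the quartiles and median of all linked regions. Rbpj has 12 points at or above the upper line and Notch2 has 7 at or below the lower line.

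The counts differed between the genes. Over all linked regions 15.7% were 2-fold or more higher and 12.2% lower, and the spread of such counts over other genes was not taken. Rbpj had 33 linked regions, of which 12 were 2-fold or more higher (36.4%) and 2 lower, with a median of 0.42. Without its regions the other genes had 14 higher of 120. Notch2 had 26 regions, of which 7 were lower (26.9%) and 2 higher, with a median of −0.70. Hes1 had 16 regions, of which 4 were lower and 2 higher. Notch3, Dll1 and Maml1 had no lower region and Hey1 none in either direction. The summed level of the linked regions went from 106.6 to 161.3 CPM at Rbpj, or from 104.5 to 131.2 CPM without its region at +24.7 kb. At Notch2 it went from 117.2 to 81.97 CPM. The Rbpj promoter changed by −0.71 (percentile 8.79), while the Notch2 promoter, at −0.39, stood at the middle of all promoters (percentile 54.1).

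The highest region of a gene is shown where it holds an AP-1 word, the motif of Fos and Jun proteins, with a Notch2 region that fell and a Jag1 region that fell and holds an RBPJ-type word for comparison. Each sequence is 80 bases of the plus strand of GRCm38.p6. Capitals mark TGACTCA in the first 4, which are centered on it, and GTGGGAA, the RBPJ-type word, in the last. The Notch2 region that fell has neither and is centered on its region.
Rbpj +24.7 kb, chr5:53490775-53490854: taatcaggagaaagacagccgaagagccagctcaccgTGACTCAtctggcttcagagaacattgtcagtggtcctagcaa
Maml1 −8.6 kb, chr11:50300957-50301036: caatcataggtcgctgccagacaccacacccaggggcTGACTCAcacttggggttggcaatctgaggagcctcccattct
Notch2 +43.7 kb, chr3:98057241-98057320: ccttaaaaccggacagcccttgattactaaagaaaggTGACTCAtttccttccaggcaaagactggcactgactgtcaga
Jag2 −8.3 kb, chr12:112938038-112938117: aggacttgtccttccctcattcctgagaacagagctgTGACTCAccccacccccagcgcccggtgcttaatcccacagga
Notch2 +50.1 kb, chr3:98063577-98063656: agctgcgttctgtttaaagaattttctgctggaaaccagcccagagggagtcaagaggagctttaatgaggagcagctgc
Jag1 +36.5 kb, chr2:137080250-137080329: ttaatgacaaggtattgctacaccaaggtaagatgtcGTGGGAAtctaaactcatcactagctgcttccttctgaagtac

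Distances here are from the 5′-most protein-coding start to the center of the region, positive into the gene. The Rbpj region at +24.7 kb (chr5:53490351-53491388, in an intron) had, in epithelial-like cells, 242 Control and 6258 MOF cKO sites, that is 2.06 CPM (1.71–2.46) and 30.1 CPM (29.1–31.2). This was a change of 3.87 (3.61 to 4.15), or 14.6-fold, and it exceeded the level of the MOF cKO Rbpj promoter, 25.1 CPM. The peaks were 996 bp in Control and 904 bp in MOF cKO, so peak length did not add to it. In fibroblast-like cells the same region had 87 and 522 sites, a change of 1.93 (1.47 to 2.43). The Maml1 region at −8.6 kb (chr11:50300473-50301441), which overlaps an exon of the neighbor gene Canx outside its UTRs, rose from 83 to 762 sites, a change of 2.38 (1.91 to 2.88), and changed by −0.13 (−1.56 to 1.38) in fibroblast-like cells. The Notch2 region at +43.7 kb (chr3:98056758-98057650, intron) rose by 1.83 (1.36 to 2.34) in epithelial-like and 1.10 (0.61 to 1.62) in fibroblast-like cells. The Jag2 region at −8.3 kb (chr12:112937608-112938481, over an exon of the neighbor gene Nudt14) rose from 5.13 to 18.0 CPM, by 1.81 (1.63 to 1.99), with −0.05 (−0.46 to 0.36) in fibroblast-like cells. The 4 regions were picked for their change in epithelial-like cells, so the sizes in the classes are not compared.

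The highest regions of the other 6 genes held no AP-1 word. The largest of these rises were 2.04 (1.66 to 2.45) at −15.4 kb of Notch1, in an intergenic region (chr2:26531585-26532492), and 1.67 (1.5003 to 1.85) at +20.1 kb of Dll1, beyond its 3′ end (chr17:15356310-15357201). The Dll1 region went from 640 to 3605 sites in epithelial-like cells and from 19 to 137 in fibroblast-like cells, a change of 2.20 (1.21 to 3.35). The highest regions of Hes1 (−17.6 kb, 1.07), Jag1 (+53.8 kb, 1.09) and Notch3 (+44.7 kb, 1.04, over an exon with 3′ UTR) were close to 2-fold. Hey1 had no region above 0.

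In the other direction, the Notch2 region at +50.1 kb (chr3:98063157-98064077, intron) fell from 999 to 517 sites, or 8.49 CPM (7.76–9.27) to 2.49 CPM (2.19–2.81), a change of −1.77 (−1.99 to −1.55). In fibroblast-like cells it was higher and alike, at 22.1 and 21.8 CPM. The region at +25.8 kb of Jag2, beyond its 3′ end (chr12:112903350-112904600), changed by −1.56 (−1.90 to −1.22), and that at −14.3 kb of Hes1 (chr16:30050520-30051523) by −1.53 (−1.87 to −1.19). The Jag1 region at +36.5 kb (chr2:137079741-137080580), beyond its 3′ end, changed by −1.09 (−1.37 to −0.82), and by −0.77 per base of own peaks. The lowest Rbpj region, at +103.6 kb, changed by −1.18 by sites but by −0.28 per base, since its peak was 1252 bp in Control and 672 bp in MOF cKO. The lowest of Notch1, at +27.8 kb, changed by −1.13 (−1.50 to −0.76), with 0.28 in fibroblast-like cells. The lowest regions of Maml1 (+13.0 kb, −0.89), Notch3 (−16.5 kb, −0.76), Hey1 (−18.1 kb, −0.58) and Dll1 (−3.8 kb, −0.53) stayed within 2-fold.

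**Figure D5:**
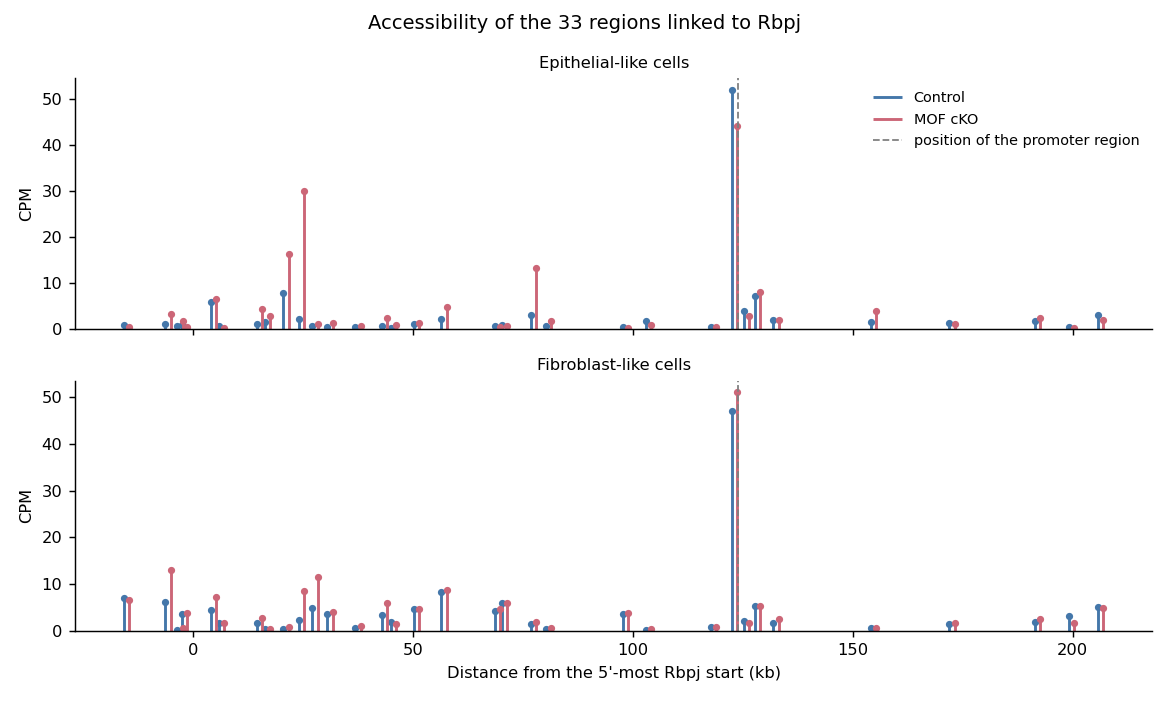
Accessibility (CPM) of the 33 regions linked to Rbpj in epithelial-like (top) and fibroblast-like (bottom) cells, by distance from the 5′-most start in kb, with Control and MOF cKO lines set side by side. The dashed line marks the promoter region at 124.0 kb, and the tall MOF cKO line at 24.7 kb reaches 30.1 CPM in epithelial-like cells, against 2.06 CPM in Control.

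Most of the rises at Rbpj lay 5′ of its promoter region, as did most of its linked regions. Its promoter region lies 124.0 kb into the annotated gene, whose outermost start had no shared region within 500 bp. MOF cKO had 3 peaks near Rbpj starts and Control 1. The additional MOF cKO peaks, at the outermost start and at an inner start, held 327 and 138 sites over all cells, against 9405 in the MOF cKO peak at the promoter region, and are not part of the promoter values. Of 25 regions 5′ of that promoter region, 11 rose 2-fold or more, all between −5.7 and +80.9 kb, and their median change was 0.95. Of 8 regions 3′ of it, 1 rose, at +154.8 kb, and the median was −0.09. Over all linked regions 15.7% rose 2-fold or more, and this split of the Rbpj regions was not planned beforehand. Besides the region at +24.7 kb, that at +77.4 kb went from 339 to 2742 sites (2.19, 1.96 to 2.43) and that at +15.2 kb from 120 to 896 (2.08, 1.69 to 2.49). In fibroblast-like cells 4 of the 11 were also 2-fold higher, where 25.5% of all linked regions that were higher in epithelial-like cells were. The strongest linked region, at +123.1 kb (chr5:53588766-53589694, intron, named after its values were seen), was, in epithelial-like cells, at 51.9 CPM (Control) and 44.1 CPM (MOF cKO), a change of −0.24, next to a promoter that changed by −0.71.

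Some strong regions differed between the classes in another way than the promoters did (also named after their values were seen). The Notch2 region at +85.3 kb was at 28.9 CPM in Control epithelial-like cells and at 0.458 CPM in Control fibroblast-like cells, and changed by −0.90 in epithelial-like cells. The Notch3 region at +4.5 kb was at 33.8 CPM in Control epithelial-like cells against 8.95 CPM in fibroblast-like cells, the reverse of the Notch3 promoter (7.33 and 26.4 CPM).

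The AP-1 words TGACTCA or TGAGTCA lay in the central 300 bp of 10 of the 26 higher regions (38.5%) and of none of the 18 lower regions. Over all linked regions the shares were 49.8% of those that were 2-fold higher, 2.88% of those 2-fold lower and 15.7% in all. Of the 12 Rbpj regions that rose, 5 held one. The RBPJ-type words GTGGGAA or TTCCCAC lay in 16 of the 153 regions (10.5%, against 7.21% of all linked regions), in 1 of the 26 higher and in 2 of the 18 lower regions. The shorter TGGGAA or TTCCCA lay in 7 of the 26 higher (26.9%, against 29.0% of all that were higher) and 8 of the 18 lower regions (44.4%, against 29.2%). The Notch genes thus carried the AP-1 words as other genes did, more often at regions that rose than at those that fell.

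Regions called in a single library have no value in the other and are given as counts. Control had 199 peaks at the 10 genes, 31 of them without an overlapping MOF cKO peak (as were 13.2% of all Control peaks), and MOF cKO had 241, 76 of them without a Control peak (as were 36.0% of all MOF cKO peaks). Of the 76, 24 were at Rbpj, out of its 58 MOF cKO peaks, and 20 at Notch2, out of its 47. Both genes also had the most MOF cKO peaks. When the MOF cKO list was limited to as many of its strongest peaks as Control had, the counts were 199 and 208.

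Of 40 further genes (receptor, ligands, glycosyltransferases, proteases, ubiquitin ligases, cofactors and targets), 39 had a promoter region, Hes7 being without. In epithelial-like cells 35 were lower (background 85.8%), the median was −0.37 and none passed 2-fold. The genes named here were chosen after their values were seen. The lowest were Maml2, a Mastermind coactivator like Maml1 (15.1 to 8.23 CPM, −0.87, −1.01 to −0.74; past 2-fold per base of own peaks, at −1.0016), and Neurl1a, a ubiquitin ligase of ligands (19.2 to 11.0 CPM, −0.81), which became −0.48 per base. The highest was Notch4 (0.22, −0.22 to 0.66), at 1.12 CPM in Control. In fibroblast-like cells 31 were lower (background 58.1%), 25 lay below the promoter median, the median was −0.06, and the 1 gene past 2-fold was Dll4, an endothelial ligand gene, from 301 to 60 sites (−2.98, −3.59 to −2.40). There the peaks of the libraries had 7 bp in common, so different stretches were counted.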

How the data were processed

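The authors processed the reads with cellranger-atac against the mm10 reference, per the study's methods. They deposited raw counts of cut sites per peak and barcode, with no normalization and with a separate peak list for each library. The build was taken as GRCm38, and no peak lay beyond its chromosome ends. Overlapping peaks of both libraries were merged, and 214119 merged regions held peaks of both and were kept. Barcodes with at least 1000 sites were kept (2481 Control, 4348 MOF cKO). Library totals were 169641002 and 324310197 sites. Cells were clustered from the 50000 regions detected in most cells (TF-IDF, 28 of 30 singular vectors after leaving out 2 that followed depth, Leiden resolution 1, leidenalg 0.10.2), and a cluster was named where 3 or more of a class's markers stood at least 2-fold over the mean of the clusters assigned elsewhere (pseudocount 5 CPM). Names end in "like" because they rest on accessibility. Doublets were scored by simulation and kept in the main values. The shallow clusters, cluster 10 (epithelial-like) and cluster 13 (fibroblast-like), kept their names because a marker was among their top 10 genes.

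Sites were summed per class and library in Python 3.11.15 with numpy 2.4.6 and scipy 1.17.1. Regions and promoters needed at least 20 sites. Intervals were exact Poisson for levels and exact conditional binomial for ratios, at 95%, on fragments (sites divided by 2). Promoter regions lay within 500 bp of a protein-coding start in GENCODE vM21, and a gene with several was given their sum. The calculation was tested on simulated data. For each gene the region that rose most and the one that fell most, of those with at least 200 epithelial-like sites, are named. Genes and lists were chosen with earlier results of these data known. Alternatives covered scaling, depth, doublets, clustering, site minimum, promoter window and region rules.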

Additional observations from a re-analysis of the deposited data

Results flagged for a closer look

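Summed over each class, the Hes1 promoter moved in opposite directions in the 2 cell classes, with a change of −0.28 (−0.36 to −0.19) in epithelial-like cells and of 0.17 (0.03 to 0.31) in fibroblast-like cells. With 1 library per genotype this difference was not tested, and with sites per cell the fibroblast-like value was −0.10. Control and MOF cKO fibroblast-like cells lay mainly in different clusters, and within clusters Hes1 was lower in MOF cKO in cluster 4 (44.8 and 37.6 CPM) and cluster 13 (45.6 and 36.5 CPM) and higher in cluster 5 (36.6 and 38.95 CPM) and cluster 8 (28.9 and 36.6 CPM), with overlapping intervals in each. The part of the cluster mix was not tested. Both values lay above the promoter median of their class.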

How the results depend on the processing

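Leaving out a replicate was not possible with 1 library per genotype. No paired analysis was possible because each genotype had 1 library. Adding shallow epithelial clusters without a name changed nothing, as there were none. The median of the 10 genes relative to all promoters moved little, but its absolute value follows the scaling. The epithelial median was −0.58 with all own peaks as the total, −0.28 with median-of-ratios factors and −0.26 as sites per cell, and the fibroblast median −0.30 as sites per cell. The count of lower linked regions in epithelial-like cells was 28, 9 and 8 under the same 3 scalings, and 9 in gene bodies only, where 14 were higher. There were also 14 higher regions without those of Rbpj. In fibroblast-like cells 21 were lower and 7 higher as sites per cell, 6 and 6 with cells thinned to 5000 sites, 5 and 7 with at least 200 sites, and 6 were higher in gene bodies only. Of the other pathway genes, 1 was 2-fold lower in epithelial-like cells with all own peaks as the total and 1, Maml2, per base of own peaks. In fibroblast-like cells 0 were 2-fold lower under a pair of rules. With a 1000 bp window, which adds a region, Dll4 changed by −0.90, and where the peaks of each library had to cover most of a region its promoter region dropped out and had no value. Of the promoter changes whose interval left out 0, the direction reversed for 3, Jag1 in epithelial-like cells (−0.37) and Notch1 in fibroblast-like cells (0.0176) per base of own peaks, and Hes1 in fibroblast-like cells as sites per cell (−0.10). The Notch1 reversal rests on peak length at its outermost start and not on the region at its inner start, which held most of its sites. Notch3 in epithelial-like cells and Notch2, Jag2, Dll1 and Rbpj in fibroblast-like cells, whose intervals held 0, also took both signs. The per-base counts, the runs without the shallow cluster 10 and without cluster 14 of highest doublet score (0.864), and the run without Rbpj regions were chosen after seeing the data. Apart from the scalings and stricter minimums, whose construction sets them, the cause was not tested. Classes under 100 cells limit the other levels.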
